A study of Mus musculus with 6 samples.

Results

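Lysosomal hydrolases and lysosomal membrane proteins were described here as 43 genes in mouse liver with a hepatocyte knockout of the splicing factor SRSF3. The genes were taken from a list of names, and each was represented by every probe set that the array annotation gives to that gene and to no other. All 43 were measured, out of 16277 genes on the arrays, by 673 of 229581 probe sets (2 to 52 probe sets per gene, median 15). The study compared the total liver RNA of untreated mice at 1 month of age on Affymetrix exon arrays, with 3 arrays of mice lacking SRSF3 in hepatocytes (SRSF3HKO) and 3 arrays of wild-type (WT) littermates of the same age. The Cre driver, the part of Srsf3 that was deleted and the sex of the mice are not given in the sources used here. The RNA is that of whole liver, in which hepatocytes are the main but not the only cells. The knockout is named for hepatocytes, and whether all other cells keep Srsf3 cannot be read from these sources. In such bulk samples, fewer or more cells of a type cannot be told apart from less or more RNA per cell. Nothing in the labels says outright that the WT arrays are separate animals, so the p-values measure the spread between these arrays only.

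Lysosomes are acidic, membrane-bound organelles in which hydrolases take apart proteins, glycans, sulfated polysaccharides and lipids that arrive by endocytosis, phagocytosis and autophagy. Most of the soluble hydrolases receive a mannose 6-phosphate tag in the Golgi and are carried onward by receptors for that tag, whereas a proton pump in the membrane keeps the lumen acidic. The transcription factors TFEB and TFE3 enter the nucleus when nutrients are short or lysosomes are stressed, and bind a palindromic promoter element of lysosomal genes known as the CLEAR motif. Liver is rich in lysosomes both in hepatocytes and in Kupffer cells, the resident macrophages.

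Promoters of these genes are shown first, since the CLEAR motif is the textbook link between them and is the background against which their changes can be read gene by gene. RefSeq promoters (mouse build GRCm38.p6, from 250 bases before to 50 after the gene's start) were at hand for 37 of the 43 genes. The core TCACGTGA, which reads the same on both strands, was in 6 of the 37 (16.2%), against 304 of 27025 genes (1.12%), a gene being counted if any of its promoters held it. The shorter palindrome CACGTG, which lies inside the longer one, was in 12 of the 37 (32.4%), against 2187 of all genes (8.09%). The longer core was found in Ctsa, Ctsd, Gla, Gnptg, Igf2r and Mcoln1, and only the shorter one in Arsa, Ctsl, Glb1, Lamp1, Naglu and Sgsh. A match in letters is a description and not a bound site. The stretches below carry the matches of 5 genes, read 5′ to 3′ on the strand of the gene. Capitals mark TCACGTGA in Ctsd, Mcoln1, Igf2r and Gla, and CACGTG in Lamp1. The positions are chr7:142387828-142388077 on the minus strand for Ctsd, chr8:3500399-3500518 on the plus strand for Mcoln1, chr17:12769707-12769826 on the minus strand for Igf2r and chr8:13159041-13159160 on the plus strand for Lamp1. Each of these 4 ends at the base before the gene's start. The Igf2r stretch lies within Airn, a non-coding gene on the opposite strand. Both Gla stretches are on the minus strand, at chrX:134601216-134601243 and chrX:134601183-134601210, and fall inside the gene Hnrnph2, which starts head to head with Gla.
Ctsd: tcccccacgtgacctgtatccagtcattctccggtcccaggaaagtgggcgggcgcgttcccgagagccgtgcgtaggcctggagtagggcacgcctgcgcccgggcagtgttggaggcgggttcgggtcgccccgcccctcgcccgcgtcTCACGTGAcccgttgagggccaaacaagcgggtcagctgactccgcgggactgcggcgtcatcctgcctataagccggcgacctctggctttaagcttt
Mcoln1: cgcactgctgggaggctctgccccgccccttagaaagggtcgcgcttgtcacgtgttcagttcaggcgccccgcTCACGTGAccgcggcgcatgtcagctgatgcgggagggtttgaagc
Igf2r: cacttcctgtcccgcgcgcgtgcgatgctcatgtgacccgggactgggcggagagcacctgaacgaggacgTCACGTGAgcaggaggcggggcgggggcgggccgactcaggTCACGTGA
Lamp1: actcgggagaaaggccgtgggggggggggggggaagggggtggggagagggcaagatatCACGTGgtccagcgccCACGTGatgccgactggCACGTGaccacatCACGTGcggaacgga
Gla, distal: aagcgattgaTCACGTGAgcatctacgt
Gla, proximal: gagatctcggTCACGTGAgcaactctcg

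A gene's level is given as the median of log2(intensity + 16) over its probe sets, a scale on which the changes of dim genes are understated. Changes are SRSF3HKO minus WT. Genes were tested where their mean lay above 5.35, the 90th percentile of 1038 receptor genes of smell and taste, and all 43 lysosomal genes passed this filter with no group mean below it. Adjusted p-values are those of limma with Benjamini-Hochberg adjustment over all 11721 tested genes, and 0.05 was the threshold. Albumin, the main product of hepatocytes, differed by -0.02 between the groups, and 0 of 13 tested hepatocyte genes passed the threshold in limma (1, Asgr1 at -0.88, had an unadjusted p under 0.05). Of these 13 genes, 11 had negative changes and 5 lay below every WT array on all SRSF3HKO arrays (38.5%, beside 14% of all genes), and their summed intensity was 118635 to 130645 in SRSF3HKO and 136850 to 140711 in WT. Srsf3 itself did not check the labels, because 6 of its 13 tested probe sets were higher in SRSF3HKO and 3 had lower means that did not pass, and the deleted part is not known here. The third SRSF3HKO array and the first and second WT arrays carried signal of the Y-linked gene Eif2s3y and the others did not, so the groups differed in their mix of sexes. The first SRSF3HKO array stood apart by its macrophage RNA: the summed intensity of 19 macrophage genes was 33611 on it, 6230 and 6766 on the other SRSF3HKO arrays, and 4978 to 5543 on the WT arrays. It was also the highest SRSF3HKO array for the summed neutrophil genes (508, against 214 and 146, and 130 to 157 in WT), lymphocyte genes (590, against 163 and 194, and 267 to 282 in WT), cholangiocyte genes (3073, against 1313 and 992, and 556 to 764 in WT) and erythroid genes (10370, against 1991 and 1147, and 3300 to 10917 in WT). The same held for the summed endothelial genes (4212, against 1969 and 2984, and 3321 to 4579 in WT). It held as well for the stellate cell genes (7929, against 7154 and 4823, and 4461 to 5552 in WT). The cholangiocyte sum rested on Spp1, at 11.41 on the first SRSF3HKO array, 9.30 and 9.25 on the others, and 8.25 to 8.68 in WT. No other gene of that list had its highest SRSF3HKO level on the first array. For the summed hepatocyte genes this array was the lowest (118635, against 129953 and 130645).

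The lysosomal genes did not move as a block. Of the 43, 7 rose in SRSF3HKO and 1 fell, while 35 did not pass the threshold. Those that rose were the progranulin gene Grn, the glycosidases Hexa, Neu1 and Gla, the cathepsins Ctsz and Ctsd, and the cholesterol carrier Npc2, by 1.67 to 2.64-fold, and the sulfatase Arsb fell by 1.87-fold. The share called, 18.6%, stands beside 11.9% of all tested genes, of which 6.86% were higher and 5.04% lower. The median change of the 43 genes was 0.25, beside 0.08 for all tested genes, and 28 of them (65.1%) had a positive change, beside 57.4% of all. Every SRSF3HKO array lay above every WT array for 14 genes (32.6%, beside 21.6% of all) and below for 4 (9.30%, beside 14%). Set against the WT mean, the median of the 43 genes was 0.31, 0.36 and 0.03 on the 3 SRSF3HKO arrays, and 0.04, -0.08 and 0.02 on the WT arrays. Rises and falls cancel in this median. On the first, the second and the third SRSF3HKO array, 25, 30 and 19 of the genes lay above every WT array. On the same arrays, 12, 11 and 11 lay below every WT array. The share of all genes was not taken array by array. Without the first SRSF3HKO array, 6 genes were higher and 1 lower, beside 10.2% of all genes called; Ctsl and Ctsc then entered and Ctsd, Npc2 and Arsb did not pass. The count of 7 higher was 1 without the first or the second WT array, 4 without the third, and 10 without the second SRSF3HKO array. With the presence of Eif2s3y signal as a covariate, 4 genes were higher (Grn, Hexa, Ctsz and Neu1) and 0 lower in limma, with 2 lower at an unadjusted p under 0.05.

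**Figure D1:**
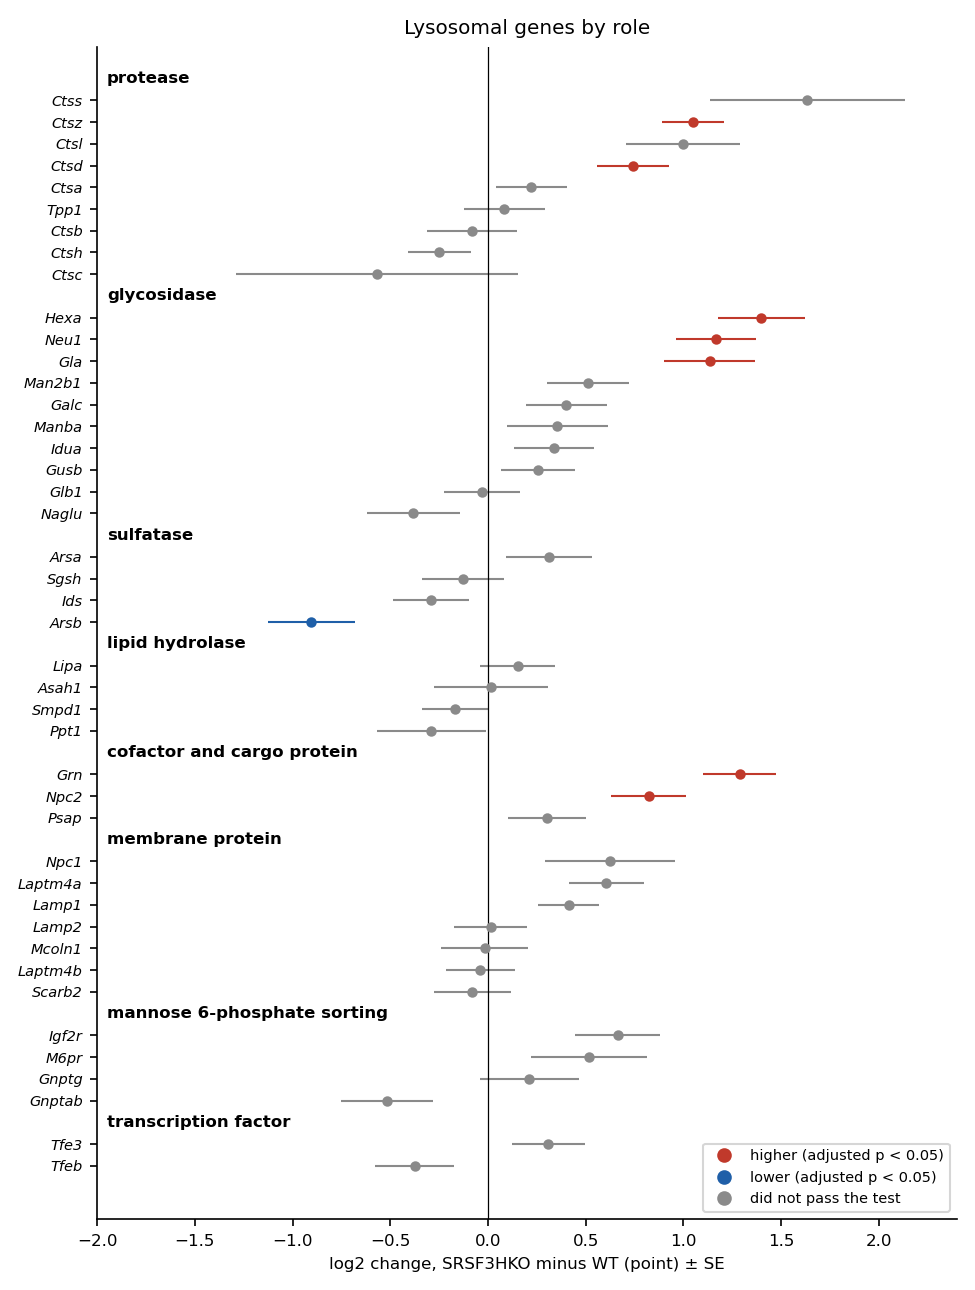
The log2 change (SRSF3HKO minus WT, points, with the standard error of the limma fit as bars, 3 arrays per group) is plotted for each of the 43 lysosomal genes, grouped by role; filled colours mark genes past the adjusted threshold. The 7 genes that rose lie between 0.74 and 1.40, Arsb lies at -0.90, and the membrane proteins and transcription factors lie between -0.38 and 0.62.

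The lysosomal proteases include the cathepsins, which cut proteins in the acidic lumen. Of 9 proteases, 2 rose (22.2%, beside 6.86% of all tested genes) and 7 did not pass. This share and those of the other roles below rest on few genes. Ctsz, a carboxypeptidase, measured 11.17, 10.98 and 11.25 on the WT arrays and 12.12, 12.19 and 12.24 on the SRSF3HKO arrays. The SRSF3HKO arrays lay close together and all above the WT arrays, a change of 1.05 ± 0.16 (SE, n = 3 per group; adjusted p = 0.00805, limma), or 2.07-fold. Ctsd, the main aspartic protease of lysosomes, measured 11.55, 11.39 and 11.47 in WT and 12.26, 12.45 and 11.92 in SRSF3HKO. The groups did not overlap, although the third SRSF3HKO array was the nearest to WT, and the change was 0.74 ± 0.18 (adjusted p = 0.0388, limma), or 1.67-fold. This call was lost without the first, the second or the third WT array (adjusted p = 0.126, 0.144 and 0.117) and without the first SRSF3HKO array (0.0715). For Ctsz it was lost without the first or the second WT array (0.0530 and 0.0521).

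Ctsl, a cysteine protease abundant in liver, measured 12.04, 11.96 and 12.15 in WT and 12.44, 13.70 and 13.00 in SRSF3HKO. All SRSF3HKO arrays were above WT, but they were spread over more than 1 log2 unit, and the change of 1.00 (95% interval 0.33 to 1.66) had an adjusted p of 0.0612 in limma. Without the first SRSF3HKO array it passed, at 1.30 (adjusted p = 0.0137), and without the second at 0.0489. Ctss, a cysteine protease best known from macrophages and other antigen-presenting cells, measured 9.95, 9.65 and 9.60 in WT and 12.50, 11.43 and 10.18 in SRSF3HKO. The first SRSF3HKO array was by far the highest and the third only slightly above WT, and the change of 1.63 (95% interval 0.49 to 2.78) did not pass (adjusted p = 0.0691), except without the third SRSF3HKO array (2.23, adjusted p = 0.00999).

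Ctsc, which activates granule proteases of immune cells by removing dipeptides, showed the widest disagreement. It measured 10.12, 9.92 and 10.20 in WT and 11.51, 8.29 and 8.73 in SRSF3HKO. The first SRSF3HKO array was above every WT array and the other 2 were below every WT array, so that the change of -0.57 (95% interval -2.22 to 1.08) had an adjusted p of 0.646 over all arrays. Without the first SRSF3HKO array Ctsc was lower by -1.57 (adjusted p = 0.00851, limma). All 11 of its probe sets had lower SRSF3HKO means.

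Ctsb, a cysteine protease, measured 11.67, 11.52 and 11.50 in WT and 11.75, 11.71 and 10.98 in SRSF3HKO. Its groups overlapped, and the interval of its change ran from -0.61 to 0.45 (adjusted p = 0.852). The carboxypeptidase Ctsa (0.22, interval -0.19 to 0.64) and the tripeptidyl peptidase Tpp1 (0.08, interval -0.39 to 0.56) also overlapped between groups. The aminopeptidase Ctsh lay lower on every SRSF3HKO array, by -0.25 (interval -0.62 to 0.12, adjusted p = 0.342).

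Glycosidases remove sugars from glycoproteins, glycolipids and glycosaminoglycans, and 3 of 10 rose (30%, beside 6.86% of all tested genes). Hexa, the alpha subunit of beta-hexosaminidase, measured 8.53, 8.89 and 8.99 in WT and 10.41, 9.89 and 10.31 in SRSF3HKO. Every SRSF3HKO array was above WT by at least 0.89, and the change of 1.40 ± 0.22 (adjusted p = 0.00885, limma), or 2.64-fold, was the largest of the 7 that rose. Neu1, the lysosomal sialidase, measured 8.26, 8.50 and 8.78 in WT and 9.59, 9.84 and 9.63 in SRSF3HKO. Here the WT arrays were the more spread, and the change was 1.17 ± 0.20 (adjusted p = 0.0125), or 2.25-fold. Gla, the alpha-galactosidase that clears globotriaosylceramide, measured 7.21, 7.43 and 7.07 in WT and 8.74, 8.31 and 8.06 in SRSF3HKO. Its groups were apart by 0.63 at their nearest, with a change of 1.13 ± 0.23 (adjusted p = 0.0204), or 2.19-fold. Each of these 3 calls was lost without the first WT array (adjusted p = 0.0558, 0.0755 and 0.0945 for Hexa, Neu1 and Gla) and without the second (0.0509, 0.066 and 0.068); Gla was also lost without the third (0.091).

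Of the other 7 glycosidases, Man2b1, an alpha-mannosidase, lay higher on every SRSF3HKO array by 0.51 (95% interval 0.03 to 0.99, adjusted p = 0.148). Galc, Manba, Idua and Gusb, which act on galactosylceramide, beta-mannosides, iduronides and glucuronides, had changes of 0.40, 0.35, 0.34 and 0.25 with overlapping groups. Glb1, the beta-galactosidase, had a change of -0.03 (interval -0.48 to 0.42). Naglu, which acts on heparan sulfate, had -0.38 (interval -0.93 to 0.16).

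Sulfatases remove sulfate from glycans and glycolipids, and 1 of 4 fell (25%, beside 5.04% of all tested genes). Arsb, which acts on dermatan sulfate and chondroitin sulfate, measured 7.26, 7.46 and 7.09 in WT and 6.43, 6.01 and 6.66 in SRSF3HKO. No SRSF3HKO array reached the lowest WT array, and the change was -0.90 ± 0.22 (adjusted p = 0.0385, limma). The call was lost without the first, the second or the third WT array (adjusted p = 0.130, 0.139 and 0.0929) and without the first SRSF3HKO array (0.0570). Ids, the iduronate sulfatase, lay lower on every SRSF3HKO array by -0.29 (interval -0.74 to 0.15), and all 9 of its probe sets had lower means. Sgsh had a change of -0.13 and Arsa of 0.31, both with overlapping groups. The lipid hydrolases were 0 of 4 by limma, and none of the 4 had an unadjusted p under 0.05. Lipa, which frees cholesterol and fatty acids from lipoprotein lipids, had a change of 0.15 (interval -0.28 to 0.59). The acid ceramidase Asah1 had 0.02 (interval -0.65 to 0.69), the sphingomyelinase Smpd1 -0.17 (interval -0.56 to 0.22) and the palmitoyl thioesterase Ppt1 -0.29 (interval -0.93 to 0.35).

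Among the 3 soluble cofactors and cargo proteins, 2 rose (66.7%, beside 6.86% of all tested genes). Grn encodes progranulin, a secreted and lysosomal protein cut into granulins, and is also a gene of macrophages. It measured 10.59, 10.56 and 10.41 in WT and 12.02, 11.87 and 11.53 in SRSF3HKO. The gap between the groups was 0.95, wider than the range within either group, and the change was 1.29 ± 0.19 (adjusted p = 0.00657, limma), or 2.44-fold. Grn alone among the 8 called genes stayed past the threshold in all 20 alternative settings and left-out arrays that were run (highest adjusted p 0.0441). Npc2, which hands cholesterol from the lumen to NPC1, measured 9.28, 9.40 and 9.41 in WT and 10.44, 9.96 and 10.16 in SRSF3HKO. The tight WT arrays lay below all SRSF3HKO arrays, with a change of 0.82 ± 0.19 (adjusted p = 0.0319), or 1.77-fold. This call was lost without the first, the second or the third WT array (0.135, 0.106 and 0.104), without the first SRSF3HKO array (0.0744) and without the third (0.062). Psap, the precursor of the saposins that lift sphingolipids to their hydrolases, measured 11.78, 11.79 and 12.10 in WT and 12.36, 12.35 and 11.87 in SRSF3HKO. The third SRSF3HKO array lay among the WT values, and the change of 0.30 (interval -0.15 to 0.76) had an adjusted p of 0.351.

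**Figure D2:**
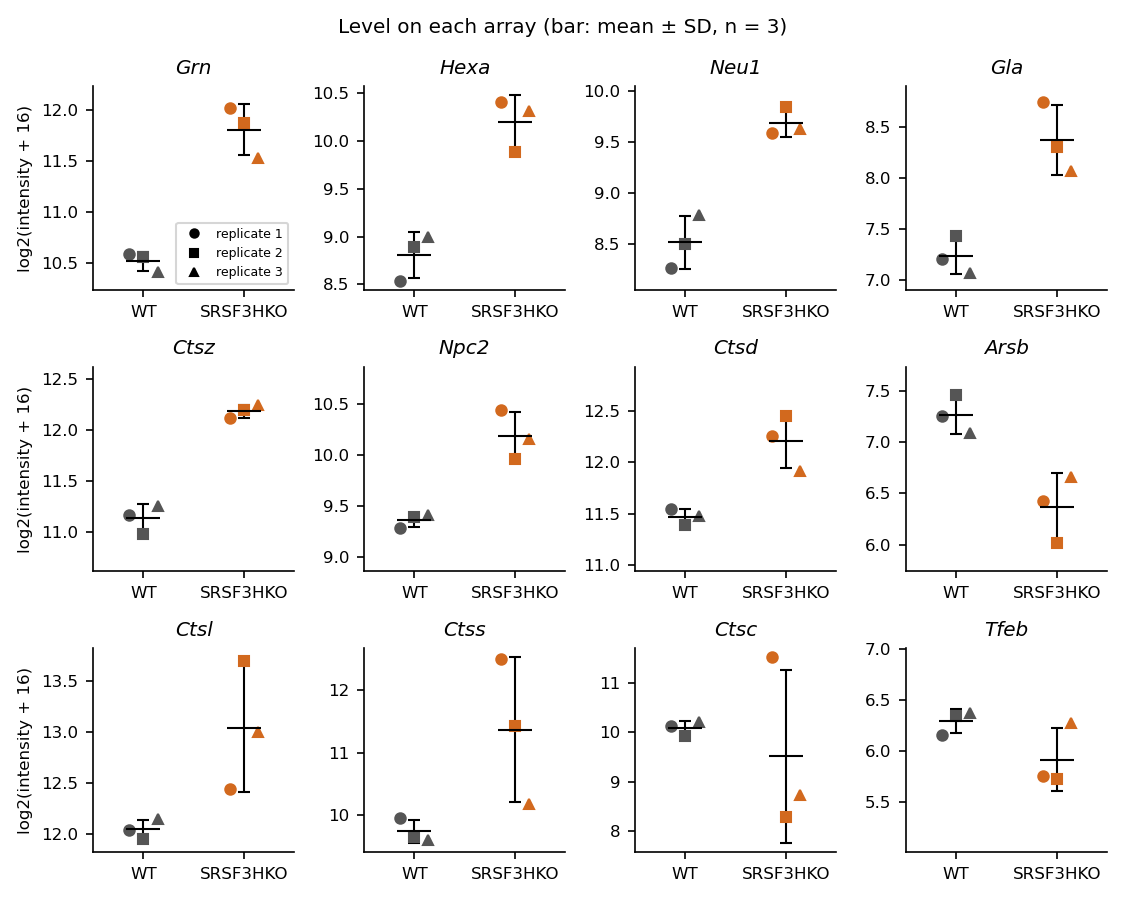
Gene level (median of log2(intensity + 16) over probe sets, vertical axes differ between panels) is plotted on each of the 3 WT and 3 SRSF3HKO arrays for 12 lysosomal genes, with the mean and SD of each group. Grn, Hexa, Neu1, Gla, Ctsz, Npc2 and Ctsd lie apart upward and Arsb downward, whereas the SRSF3HKO arrays of Ctss run from 10.18 to 12.50 and those of Ctsc from 8.29 to 11.51.

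The 7 membrane proteins had a median change of 0.01, and 0 of them passed in limma; 2 had an unadjusted p under 0.05. Lamp1, the most used marker of the lysosomal membrane, measured 11.63, 11.45 and 11.63 in WT and 11.91, 12.07 and 11.96 in SRSF3HKO. It lay higher on every SRSF3HKO array, by 0.41 (interval 0.05 to 0.77, adjusted p = 0.127). Lamp2, needed for the fusion of autophagosomes with lysosomes, measured 11.75, 11.48 and 11.79 in WT and 11.44, 11.88 and 11.74 in SRSF3HKO. Its groups overlapped, and the change of 0.01 had an interval of -0.42 to 0.44. Mcoln1, a calcium channel of the lysosomal membrane and a known TFEB target, measured 8.41, 8.43 and 8.39 in WT and 8.03, 8.75 and 8.40 in SRSF3HKO. The SRSF3HKO arrays lay below, above and among the WT arrays, for a change of -0.02 (interval -0.53 to 0.49).

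Laptm4a, a small transmembrane protein, was the other membrane gene with groups apart, at 10.79, 11.09 and 10.93 in WT and 11.80, 11.30 and 11.52 in SRSF3HKO. Its change of 0.61 had an adjusted p of 0.0776, and of 0.0247 without the second SRSF3HKO array. Npc1, which moves cholesterol out of the lysosome, had 11.05 on the second SRSF3HKO array against 9.87 and 9.95 on the others, for a change of 0.62 (interval -0.14 to 1.39). Laptm4b had -0.04 (interval -0.45 to 0.37), and Scarb2, the receptor that carries glucocerebrosidase to lysosomes, had -0.08 (interval -0.53 to 0.37).

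The 4 genes of mannose 6-phosphate sorting had a median change of 0.36, and 0 passed in limma (1 at an unadjusted p under 0.05). Igf2r, the large receptor for mannose 6-phosphate and for IGF2, measured 8.18, 7.99 and 8.23 in WT and 9.11, 8.80 and 8.48 in SRSF3HKO. Its groups were apart, the change was 0.66 (interval 0.17 to 1.16, adjusted p = 0.0842), and all 52 of its probe sets had higher SRSF3HKO means, of which 6 passed the threshold. The small receptor M6pr, measured by 2 probe sets, had 0.52 (interval -0.17 to 1.20), and passed only without the second SRSF3HKO array (adjusted p = 0.0198). The subunits of the phosphotransferase that makes the tag differed in sign, with -0.52 (interval -1.05 to 0.02) for Gnptab and 0.21 (interval -0.37 to 0.79) for Gnptg.

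The transcription factors stayed short of the threshold, and neither had an unadjusted p under 0.05. Tfeb measured 6.16, 6.35 and 6.38 in WT and 5.75, 5.73 and 6.27 in SRSF3HKO. The first and second SRSF3HKO arrays were below WT and the third was among them, for a change of -0.38 (interval -0.84 to 0.09, adjusted p = 0.261). Tfe3 measured 7.32, 7.11 and 7.17 in WT and 7.49, 7.69 and 7.35 in SRSF3HKO. Its groups missed each other by 0.03, and the change was 0.31 (interval -0.12 to 0.74, adjusted p = 0.315). RNA level does not measure the nuclear entry of these factors. Of the genes that rose, Ctsd and Gla hold the TCACGTGA core printed above, that is 2 of 7 (28.6%), beside 4 of the 29 genes with a promoter at hand that did not pass (13.8%). The shorter CACGTG differed the other way, with the same 2 of 7 (28.6%) beside 10 of the 29 (34.5%). Mcoln1 and Igf2r, whose promoters are also printed above, were among those that did not pass. The other genes that rose, Grn, Ctsz, Hexa, Neu1 and Npc2, had neither palindrome in the window.

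Exon arrays measure a gene at many places, so agreement along the gene can be read from its probe sets. Of the 673 probe sets, 642 were above the floor for probe sets and tested, and 94 were higher and 3 lower (15.1%), beside 9.05% of all probe sets, of which 4.73% were higher and 4.33% lower. In the 7 genes that rose, 67 of 77 tested probe sets passed. These genes were picked by the median of the same probe sets, so a high share follows in part from that choice. All 12 of Ctsd were higher, with changes from 0.66 to 1.05. Grn had 17 of 18, Hexa 15 of 16, Ctsz 9 of 10, Gla 6 of 8, Neu1 5 of 7 and Npc2 3 of 6, and every tested probe set of these genes had a positive change. For Arsb 3 of 10 passed as lower, and all 10 were negative. Genes short of the threshold could be as uniform: all 12 probe sets of Ctsl were positive with 8 past the threshold, all 27 of Npc1 were positive with 1, and 23 of 24 of Gnptab were negative with 0 past it. In all, 19 genes had at least 3 tested probe sets and all of them on the same side of 0. The share of all genes was not taken for this count, so it is not a trait of lysosomal genes. Probe sets of a gene share their RNA and are not replicates.

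**Figure D3:**
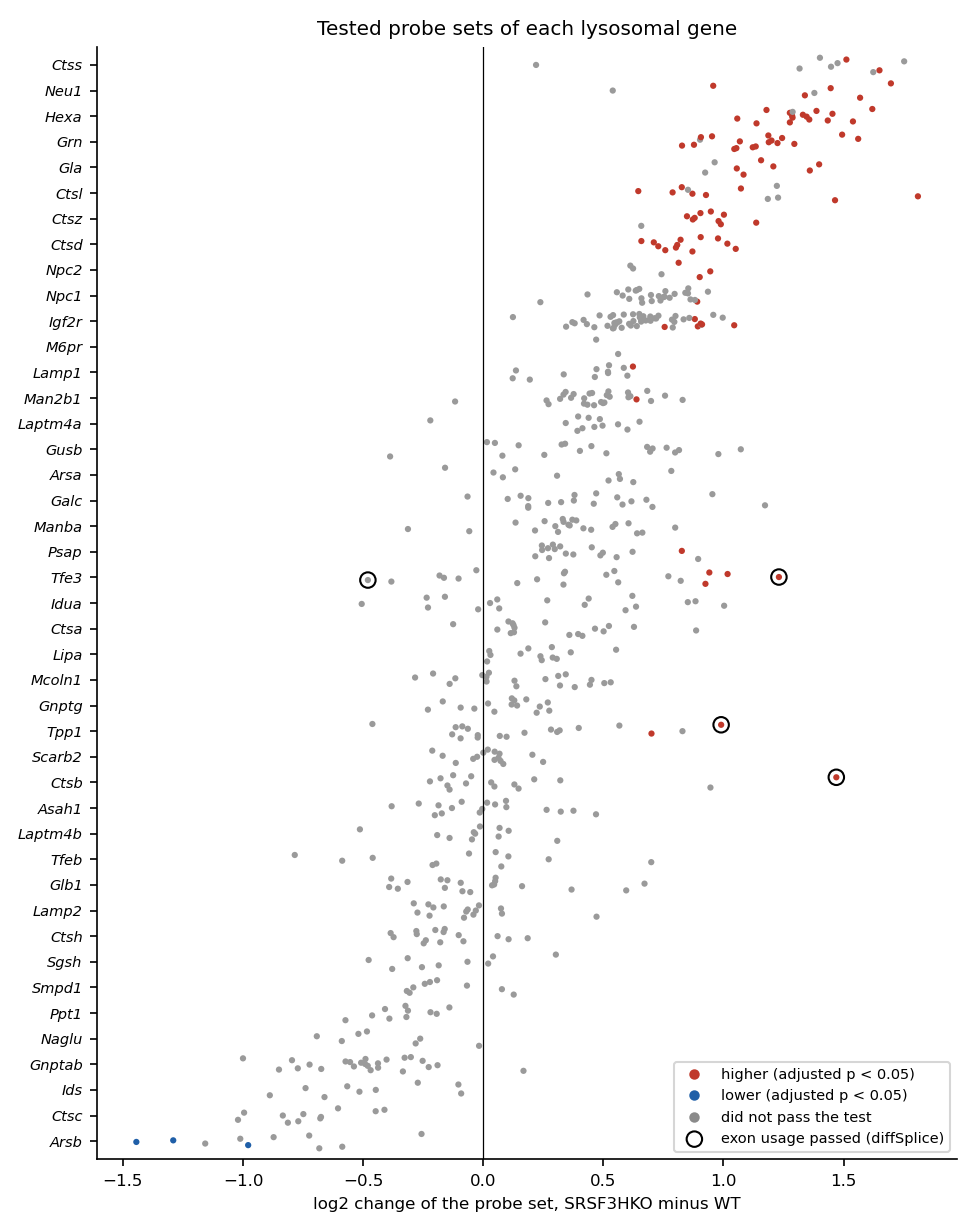
Each point is the log2 change (SRSF3HKO minus WT) of a tested probe set, in a line for each of the 43 lysosomal genes; red and blue mark probe sets past the adjusted threshold upward and downward, and circles mark those past the exon usage threshold. The points of Ctsd, Grn and Hexa lie together to the right of 0, and the circled points of Ctsb, Tpp1 and Tfe3 lie away from the rest of their gene.

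Because SRSF3 is a splicing factor, the use of single exons within these genes was of interest. In the exon usage test of limma (diffSplice), which sets each probe set against the others of its gene, 4 of 640 tested probe sets in 42 genes passed (0.625%), close to the 0.661% of all probe sets. Probe set 5371824 of Ctsb had WT intensities of 345, 325 and 290 and SRSF3HKO intensities of 1580, 609 and 787. It was higher on every SRSF3HKO array, by 1.47 on the log2 scale, while the median over the 15 probe sets of Ctsb was 0.03 (usage difference 1.41, adjusted p = 0.00286). Probe set 5409975 of Tpp1 had WT intensities of 877, 939 and 850 and SRSF3HKO intensities of 1504, 2114 and 1774, with a usage difference of 0.84 (adjusted p = 0.0298) in a gene whose level did not pass. The others lay in Tfe3 and pointed opposite ways. Probe set 4838418 was relatively higher, at 155, 98.4 and 152 on the WT arrays and 413, 315 and 283 on the others (usage difference 0.91, adjusted p = 0.0356). Probe set 4656798 was relatively lower, with 136, 151 and 136 against 135, 117 and 54.6, where the third SRSF3HKO array alone was far below WT (usage difference -0.89, adjusted p = 0.0409). All 4 calls were lost without any 1 of the WT arrays (adjusted p from 0.0612 to 0.313). Without the third SRSF3HKO array those of Tpp1 (0.220) and of both Tfe3 probe sets (0.0755 and 0.519) were lost, and without the first that of probe set 4838418 (0.317), so only the Ctsb call stood without each SRSF3HKO array. A test of the log ratio of probe set to gene, again in limma, called 0 of the 4 (adjusted p from 0.0952 to 0.326). Where these probe sets lie in the transcripts is not given in the sources used here.

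Other genes of the lysosome were read from lists that hold none of the 43 genes. The proton pump that acidifies the lumen had the highest share called of the 6 lists: 7 of its 17 tested subunit and accessory genes rose (41.2%, beside 6.86% of all genes) and 0 fell in limma, with 0 lower also at an unadjusted p under 0.05. The median change was 0.86, 15 of 17 changes were positive, and 12 genes (70.6%, beside 21.6% of all) lay higher on every SRSF3HKO array. Atp6v1d, a subunit of the central stalk, measured 8.80, 8.46 and 8.61 in WT and 10.26, 9.99 and 10.43 in SRSF3HKO. The 2 groups were apart by 1.20 and the change was 1.60 ± 0.20 (adjusted p = 0.00372, limma), or 3.04-fold. Atp6v1e1, of the peripheral stalk, rose by 1.38 ± 0.18 (adjusted p = 0.00428), the membrane subunit Atp6v0a2 by 1.00 ± 0.18 (0.0135) and the accessory protein Atp6ap2 by 1.46 ± 0.26 (0.0135). Atp6v1h, Atp6v1c1 and Atp6v1g1 also rose. Atp6ap1 (-0.05) and Atp6v0d1 (0.10) did not pass and had overlapping groups. The count of 7 was 2 without the first or the second WT array, 3 without the third, and 6, 9 and 7 without the first, the second and the third SRSF3HKO array; it was 5 with the Y-linked covariate. TCACGTGA was in a promoter of 3 of the 12 genes of this list with a promoter at hand (25%), beside 1.12% of all genes. In the other lists below it was in 7 of 30 membrane proteins and transporters (23.3%) and 2 of 27 hydrolases and soluble proteins (7.41%). It was in 1 of 19 sorting genes (5.26%), 1 of 20 autophagy genes (5%) and 0 of 22 nutrient sensing genes.

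Of the remaining hydrolases and soluble proteins of the lysosome, 4 of 30 tested genes were lower (13.3%, beside 5.04% of all) and 0 higher in limma, at a median of -0.07, while at an unadjusted p under 0.05 there were 8 higher and 6 lower. The cysteine protease Ctso fell by 1.16 on the log2 scale (SE 0.27, adjusted p = 0.0317), the mannosidase Man2b2 by 1.11 (SE 0.22, 0.0171), the sialic acid esterase Siae by 0.87 (SE 0.23, 0.0471) and the carboxypeptidase Scpep1 by 0.74 (SE 0.19, 0.0401). The lower count was 0 without any 1 of the WT arrays and 3 to 4 without any 1 of the SRSF3HKO arrays, 0 with the Y-linked covariate and 2 with no filter on dim genes. The higher count was 2 without the first and 3 without the third SRSF3HKO array, 3 with array weights, 2 with the mean over probe sets and with the filter at the median, and 1 with quantile normalization and with median polish. Among 30 other membrane proteins and transporters, 5 rose (16.7%, beside 6.86% of all) and 1 fell (3.33%, beside 5.04%), at a median of 0.23. The tetraspanin Cd63, a resident of late endosomes and lysosomes, measured 7.23, 6.65 and 6.74 in WT and 10.74, 10.05 and 10.23 in SRSF3HKO. With the groups apart by 2.82, its change of 3.47 ± 0.25 (adjusted p = 5.3e-04, limma), or 11.0-fold, exceeded that of every one of the 43 genes. The channel Tpcn2 rose by 1.24 (0.0119), Litaf by 1.22 (0.0174) and the amino acid exporter Slc66a1 by 1.05 (0.0210), whereas the lipid transporter Abca2 fell by 1.55 (0.00323). The membrane count of 5 was 2, 1 and 2 without the first, the second and the third WT array, 4 to 5 without an SRSF3HKO array, and 3 with the covariate; the lower count was 2 with quantile normalization and with array weights.

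Of 24 tested genes of sorting and transport to the lysosome, 3 rose (12.5%, beside 6.86% of all genes), namely Vps29 of the retromer (0.97, adjusted p = 0.0201) and the AP-1 adaptor subunits Ap1s1 (0.92, 0.0422) and Ap1m1 (0.76, 0.0452). Of 20 genes of nutrient sensing at the lysosome, 2 rose (10%): Lamtor3, a Ragulator subunit, by 1.30 (adjusted p = 0.0135), and the GTPase gene Rragd by at least 2.57-fold (0.0129), its WT mean being under the floor of 5.35. Of 26 autophagy genes, Atg12 rose by 1.53 (0.00976) and the kinase gene Ulk2 fell by 1.87 on the log2 scale (0.00524), which is 3.85% in each direction, beside 6.86% of all genes higher and 5.04% lower. The medians of these 3 lists were 0.23, 0.27 and 0.38. The count of 3 sorting genes was 0 without any 1 of the WT arrays, 1, 6 and 1 without the first, the second and the third SRSF3HKO array, and 1 with the covariate and with no filter; it was 5 with the mean over probe sets and with the filter at the median. That of 2 nutrient sensing genes was 1 and 0 without the first and the second WT array, and 3 and 4 without the first and the second SRSF3HKO array; it was 1 with the filter at the median and with at least 5 probe sets. Atg12 was the only autophagy gene that rose, and the count was 0 without the second WT array, 2 without each SRSF3HKO array in turn, 2 with quantile normalization and with the mean over probe sets, 3 with median polish and 4 with array weights. The lower count was 2 without the second SRSF3HKO array and with array weights.

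**Figure D4:**
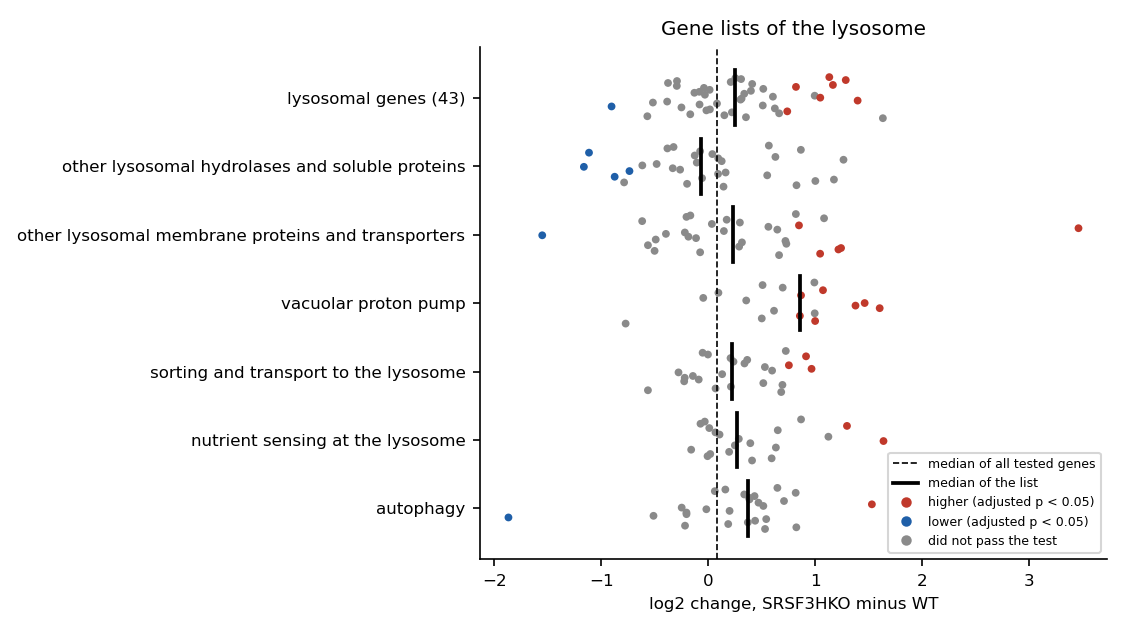
Log2 changes (SRSF3HKO minus WT) of the 43 lysosomal genes and of the 6 other lysosomal lists are plotted as points, with colours for genes past the threshold, a bar at the median of each list and a dashed line at 0.08, the median of all tested genes. The proton pump has the highest median, 0.86, and the other hydrolases lie at -0.07.

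Macrophages are rich in lysosomes and express many of these genes, so their markers are given beside the results. Of 19 tested macrophage markers, 4 were higher (21.1%, beside 6.86% of all genes) and 0 lower in limma (0 lower also at an unadjusted p under 0.05), at a median of 1.03, and 17 changes were positive. The count of 4 was 1 without any 1 of the WT arrays, 3 and 8 without the first and the second SRSF3HKO array, and 1 with the covariate. It was 1 with a pseudocount of 64, the filter at the median and median polish, 2 with quantile normalization, the mean over probe sets and no filter, and 9 with array weights. The 4 were Marco (2.78, adjusted p = 0.0449), Cd14 (at least 3.54-fold, 0.0340), Trem2 (0.78, 0.0486) and Gpnmb (at least 4.27-fold, 0.00106), the last also a lysosomal membrane protein. All 19 markers were above every WT array on the first SRSF3HKO array. On the second and the third, 11 of the 19 were above every WT array on both (Cd68, Marco, Vsig4, C1qa, C1qb, C1qc, Cd163, Cd14, Lyz2, Trem2 and Gpnmb), so these 11 lay higher on all SRSF3HKO arrays (57.9%, beside 21.6% of all genes). On the same 2 arrays, 5 were below every WT array on both (Adgre1, Clec4f, Csf1r, Timd4 and Folr2), and 3 were neither. Cd68, a lysosomal membrane protein of macrophages, measured 8.05, 8.28 and 7.93 in WT and 10.68, 9.02 and 8.80 in SRSF3HKO (change 1.41, adjusted p = 0.0793, limma). Adgre1 (F4/80), the defining marker of the list, measured 7.63, 7.58 and 7.68 in WT and 9.77, 6.74 and 7.20 in SRSF3HKO. The markers thus parted on the second and the third SRSF3HKO arrays. On both, Grn, Hexa, Neu1, Gla, Ctsz, Npc2 and Ctsd were above every WT array and Ctsc was below. The genes that rose were picked by their calls on these same arrays, so their place above WT is not a separate result. Without the first SRSF3HKO array, the changes were 1.18 for Grn, 1.30 for Hexa, 1.21 for Neu1, 0.95 for Gla and 1.08 for Ctsz (adjusted p from 0.0134 to 0.0371, limma), 0.70 for Npc2 (0.0744), 0.72 for Ctsd (0.0715) and -0.93 for Arsb (0.0570). The summed macrophage intensity on the second and the third SRSF3HKO arrays was 6230 and 6766, still above the WT range of 4978 to 5543, and the part of macrophage RNA in these results was not tested.

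**Figure D5:**
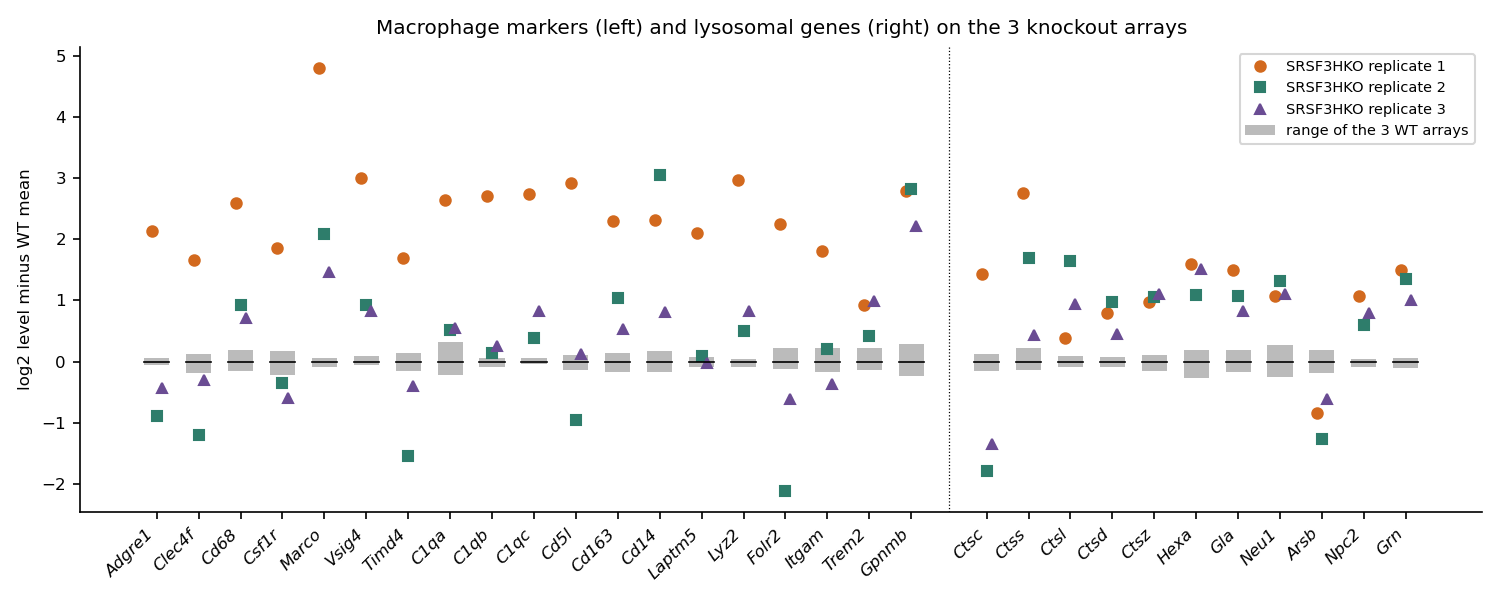
For each SRSF3HKO array the log2 level minus the WT mean is plotted for all 19 tested macrophage markers and for 11 lysosomal genes (the 8 past the threshold, Ctsc, Ctss and Ctsl), with the range of the WT arrays in grey. All 19 markers lie above the WT range on the first array, and on both of the others 11 lie above it and 5 below. The 7 lysosomal genes that rose, which were picked by their calls on these same arrays, lie above it on all 3 arrays.

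The groups' mix of Y-linked signal also stood beside these changes. Within the arrays that carried the signal (2 WT, 1 SRSF3HKO) and within those that did not (1 WT, 2 SRSF3HKO), the differences were 0.96 and 1.53 for Grn, 1.60 and 1.15 for Hexa, 1.24 and 0.93 for Neu1, 0.74 and 1.45 for Gla, and 1.17 and 0.90 for Ctsz. They were 0.82 and 0.79 for Npc2, 0.45 and 0.88 for Ctsd, and -0.70 and -0.87 for Arsb. The groups of all 8 genes did not overlap, so the sign in both splits was fixed beforehand and only the sizes are informative. No test was run at these numbers. With this covariate in the fit, the adjusted p was 0.0254 for Grn, 0.0299 for Hexa, 0.0295 for Ctsz and 0.0382 for Neu1, and 0.059 for Gla, 0.0845 for Npc2, 0.101 for Ctsd and 0.0881 for Arsb (limma). Among other cell types, 0 of 4 neutrophil and 0 of 5 lymphocyte genes passed in limma (1 and 0 at an unadjusted p under 0.05). Kdr of 10 endothelial genes fell by 0.87 on the log2 scale (adjusted p = 0.0451), Col3a1 of 10 stellate cell genes by 1.41 (0.0434), Krt23 of 6 cholangiocyte genes rose by 1.19 (0.0388), and of 4 erythroid genes Tfrc rose by 1.36 and Alas2 fell by 2.35. The shares lower were 10% of endothelial, 10% of stellate cell and 25% of erythroid genes, beside 5.04% of all. The shares higher were 16.7% of cholangiocyte and 25% of erythroid genes, beside 6.86% of all. Each of these shares is a single gene. The endothelial, stellate cell and cholangiocyte calls were each lost without any 1 of the WT arrays and with the covariate, the endothelial one also without the second or the third SRSF3HKO array and with no filter, the stellate cell one without the third, with no filter and with the mean or median polish over probe sets, and the cholangiocyte one with quantile normalization and median centring. The Alas2 call was lost without any 1 of the WT arrays, and that of Tfrc without the first or the second. Without the first SRSF3HKO array 3 of the 10 endothelial genes were lower, at a median of -0.79 with 0 of 10 positive. Beside them, 609 of all 11584 genes tested in that fit were lower. The part of these cell types in the results above was not tested.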

How the data were processed

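Total RNA of liver was hybridised to 6 Affymetrix exon arrays, 3 per genotype as the labels give it. The deposited values are linear probe set intensities that the authors made from core exons with PLIER in Affymetrix Expression Console, per the submitters' processing notes, with versions and background steps not given in the sources used here. Genes were assigned by the platform annotation at hand, in which 208397 probe sets had 1 gene, 3965 several (left out) and 17219 none. The annotation lists Tfeb and Tfe3 under older symbols (Tcfeb, Tcfe3), which were updated through RefSeq. Intensities were taken as log2(value + 16) with no further normalization. Genes were summarised by the median of their probe sets and tested, above a floor of 5.35 for genes and 5.63 for probe sets, with lmFit and eBayes with trend in limma 3.58.1 (R 4.3.3) on all 6 arrays, and diffSplice was run on genes with at least 3 tested probe sets. The code was tested on simulated data. No coverage or depth applies; the 3 arrays per group limit the precision. Promoter matches came from the RefSeq promoter table (GRCm38.p6).

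The 43 genes, the pathway and marker lists and the tests were chosen with earlier results of these data known. All 43 genes could be named; genes past the threshold and Tfeb, Tfe3, Mcoln1, Lamp1, Lamp2, Ctsd, Ctsb, Ctsl, Grn and Psap were given on every array, with Ctss, Ctsc, Laptm4a and Igf2r added after their values were seen. Of each pathway list up to 4 genes per direction with the lowest adjusted p were given with values, and of each marker list those past the threshold and the defining marker; the other macrophage genes, Asgr1, Atp6ap1 and Atp6v0d1 were added after their values were seen. Alternatives were other pseudocounts (1 and 64), quantile normalization, median centring, the mean or median polish over probe sets, other filters, eBayes without trend or robust, array weights, a minimum of 1.5-fold or of 5 probe sets, a splicing index, the Y-linked signal as a covariate, and each array left out.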

Additional observations from a re-analysis of the deposited data

How the results depend on the processing

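With array weights, 2160 genes were called over the whole array in place of 1395, and with the Y-linked covariate 620. With that covariate the lysosomal genes counted 4 higher and 0 lower (2 lower at an unadjusted p under 0.05, limma), their probe sets 39 higher and 1 lower, and 2 probe sets passed for exon usage. The splicing index called 0 probe sets, with 56 at an unadjusted p under 0.05, against 4 in diffSplice. eBayes without trend gave 62 higher probe sets in place of 94. Quantile normalization, median centring and the filter at the median each gave 5 lower probe sets in place of 3. When single arrays were left out, the genes called over the whole array ran from 244 (without the first WT array) to 2155 (without the second SRSF3HKO array), the lysosomal genes higher from 1 to 10 and lower from 0 to 1, their probe sets higher from 8 to 121 and lower from 0 to 14, and the exon usage calls from 0 to 11. The counts of 0 lower genes and 0 exon usage calls came without single WT arrays, where 1 to 2 genes and 30 to 36 probe sets had an unadjusted p under 0.05. Of the 8 called genes, 4 lost the call with the Y-linked covariate, 7 without the first and 7 without the second WT array, 4 without the third, 3 without the first and 1 without the third SRSF3HKO array. No called change turned its sign in any alternative, and the other alternatives lost none of the 8. For left-out arrays the sign was fixed beforehand, since the groups of these 8 genes did not overlap. Ctsl also passed with quantile normalization (adjusted p = 0.0443), the filter at the median (0.0477) and array weights (0.0276), and Laptm4a with array weights (0.0234). The cause of these shifts was not tested; a left-out array leaves fewer samples. No paired analysis was possible because the labels give the groups no shared replicate numbers: the numbers in the sample titles differ between all 6 arrays, and the replicate numbers 1 to 3 used here only follow the order of the samples within each group. With 3 arrays per group the printed intervals are wide, and a gene that did not pass may still have changed by any amount within its interval. Genes near the floor have compressed changes.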
